A study of Mus musculus with 16 samples.

Results

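Immunoglobulin gene segments are described here in RNA of sorted mouse pancreatic cancer cells. The members are the rows of the count table whose biotype is an immunoglobulin V, D, J or C gene and that held at least 10 counts over the 4 WT and overexpression libraries. There were 146 such segments among 264 annotated ones and 54532 genes in all. They comprised 63 V, 1 J and 7 C segments of the heavy chain locus, 69 V and 1 C segments of the kappa locus, and 2 V and 3 C segments of the lambda locus. None of the 19 annotated D segments, which are very short, was a member. All 146 had the same GRCm38 coordinates in the GENCODE M21 annotation as in the deposited table. Counts in WT and overexpression libraries chose the members, so their differences between these groups are given as a description. The Ly6d-high and Ly6d-low libraries had no part in the choice. Just inside the minimum were Ighd with 10 counts, Ighv1-85 with 10 and Ighv1-66 with 11. Just outside it were Ighv1-63 with 9, Ighv14-1 with 8 and Igkv8-18 with 7.

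KPC1199 is a mouse pancreatic cancer line, and all 4 groups used here were cells of this line sorted from tumours grown in the pancreas, with 2 libraries per group. WT cells were compared with cells that overexpress Ly6d, the gene of a surface protein of the Ly6 family, and cells with high Ly6d expression with cells with low expression. The series also labels 8 tissue samples, which were not analysed here. The sort markers, the host strain and its immune status are not given in the sources used here, nor whether the Ly6d-high and Ly6d-low cells came from WT or overexpressing tumours. The WT columns carry names of sorted WT samples that also occur inside tissue titles. The overexpression columns carry a name found in the labels of overexpression tumour tissue, while the sorted overexpression samples have another, so their assignment to the sorted group is an inference from names. Nothing in the labels says that the libraries of a group came from separate animals or cultures, so p-values measure only the spread between these libraries. Ly6d stood at 1260 and 1066 CPM (read counts scaled to library size) in WT and 3380 and 3423 CPM in overexpression libraries. It stood at 203 and 136 CPM in Ly6d-high and 0.465 and 0.104 CPM in Ly6d-low libraries. Libraries held between 15063975 and 20509539 reads.

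Antibodies are made by B cells and, in large amounts, by plasma cells. A heavy chain pairs with a kappa or lambda light chain, and each chain joins a variable part, assembled in the developing B cell from V, J and, for heavy chains, D segments, to a constant part. The heavy constant gene sets the class: Ighm and Ighd are used first, and class switching replaces them by Ighg, Ighe or Igha, the last being the IgA typical of mucosal plasma cells. Many B cell clones can use the same germline V segment, so V use shows which segments an RNA sample draws on, not how many clones it holds.

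The leading V segment of each locus in any of the groups, and the only J member, are shown because the V results below turn on them. The last 300 coding bases of each V segment were read from GENCODE M21 transcripts. They are germline sequences and run 5′ to 3′ on the strand of the gene. Capitals mark the motif TANTNNTGN, read on the coding strand, which closes with the codon of the conserved cysteine before the V-J or V-D-J junction. It lay in the last 45 bases of 209 of the 218 annotated V segments, or 95.9%. In Ighj4, shown whole, the capitals mark TGGGG, the start of the tryptophan-glycine motif, which 3 of the 4 annotated heavy chain J segments hold. The heavy chain segments lie at chr12:115294062-115294504 (Ighv8-8), chr12:114109001-114109430 (Ighv9-2) and chr12:113428514-113428567 (Ighj4), all on the minus strand. The kappa segments lie on the plus strand at chr6:68121046-68121827 (Igkv1-117) and chr6:68437440-68437925 (Igkv15-103), and Iglv1 lies on the minus strand at chr16:19085017-19085500.
Ighv8-8: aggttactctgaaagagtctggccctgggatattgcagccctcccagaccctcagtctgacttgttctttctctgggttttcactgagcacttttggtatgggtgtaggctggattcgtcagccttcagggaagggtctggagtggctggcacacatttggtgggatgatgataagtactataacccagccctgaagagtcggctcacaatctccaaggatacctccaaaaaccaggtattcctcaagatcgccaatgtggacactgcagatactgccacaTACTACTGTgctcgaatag
Ighv9-2: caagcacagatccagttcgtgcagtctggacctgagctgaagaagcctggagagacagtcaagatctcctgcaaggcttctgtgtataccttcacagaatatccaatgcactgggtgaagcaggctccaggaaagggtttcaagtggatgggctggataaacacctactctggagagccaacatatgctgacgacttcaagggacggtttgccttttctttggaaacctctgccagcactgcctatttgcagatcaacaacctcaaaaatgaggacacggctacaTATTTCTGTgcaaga
Igkv1-117: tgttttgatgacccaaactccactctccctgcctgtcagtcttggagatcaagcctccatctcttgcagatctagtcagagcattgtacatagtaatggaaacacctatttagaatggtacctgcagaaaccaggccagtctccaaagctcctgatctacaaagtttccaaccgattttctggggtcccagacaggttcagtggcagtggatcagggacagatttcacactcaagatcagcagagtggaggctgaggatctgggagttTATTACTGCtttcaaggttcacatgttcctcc
Igkv15-103: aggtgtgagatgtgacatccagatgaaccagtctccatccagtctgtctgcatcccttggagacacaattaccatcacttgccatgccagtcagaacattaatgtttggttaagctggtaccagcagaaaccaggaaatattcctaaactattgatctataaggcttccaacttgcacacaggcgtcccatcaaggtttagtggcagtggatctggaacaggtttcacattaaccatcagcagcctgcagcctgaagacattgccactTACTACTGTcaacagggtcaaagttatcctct
Iglv1: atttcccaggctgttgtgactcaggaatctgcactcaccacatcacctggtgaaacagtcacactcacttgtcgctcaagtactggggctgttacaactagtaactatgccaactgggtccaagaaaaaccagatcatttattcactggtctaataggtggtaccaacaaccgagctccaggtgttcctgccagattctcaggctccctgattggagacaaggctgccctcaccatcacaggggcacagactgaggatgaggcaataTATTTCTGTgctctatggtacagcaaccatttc
Ighj4: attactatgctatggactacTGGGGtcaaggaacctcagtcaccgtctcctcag

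V segments resemble each other, and reads of close relatives could have been split between them by the authors' counting. Igkv1-117 was identical to Igkv1-110, its nearest relative among annotated V segments, at 97.2% of aligned bases. Iglv1 matched Iglv2 at 96.9%, Ighv8-8 matched Ighv8-5 at 96.1% and Ighv9-2 matched Ighv9-1 at 95.7%, whereas Igkv15-103 stood further apart, with 77.0% identity to Igkv11-125. Of the 134 V members, 17 shared no 50-base stretch with a transcript of any other annotated gene, and 22 shared at least 50% of their 50-base stretches. Values of single V segments are therefore uncertain where a close relative exists.

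Immunoglobulin transcripts were more abundant in overexpression than in WT libraries, and nearly all of those in the other file lay in Ly6d-high libraries. Reads on members numbered 2004 and 1492 for WT and 21384 and 21708 for overexpression. They held 17987 and 13722 reads in the Ly6d-high libraries against 8 and 16 in the Ly6d-low libraries. In CPM this was 110.7 and 96.6 in WT, 1169 and 1206 in overexpression, 877 and 747 in Ly6d-high, and 0.531 and 0.828 in Ly6d-low cells. Neither pair of groups overlapped. With the libraries of a group pooled, the share of reads was 11.4-fold higher in overexpression than in WT (95% counting interval 11.0 to 11.8) and 1169-fold higher in Ly6d-high than in Ly6d-low (785 to 1824). These intervals cover counting error only, not the spread between libraries. As a share of TPM, a unit that divides by gene length, the members made up 0.0466% and 0.0274% in WT and 0.517% and 0.505% in overexpression libraries. They made up 0.308% and 0.271% in Ly6d-high libraries, and 0.0002519% and 0.0003097% in Ly6d-low libraries. In such bulk samples, fewer cells of a type and less RNA per cell cannot be told apart.

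Of the heavy constant genes, Igha at chr12:113254830-113260236 held the most reads in WT, overexpression and Ly6d-high libraries. It counted 669 and 591 reads in WT, 6342 and 6935 in overexpression, 3509 and 2804 in Ly6d-high, and 0 and 1 in Ly6d-low libraries. Ighg2c, which encodes an IgG heavy chain, counted 257 and 164 reads in WT and 1911 and 1856 in overexpression libraries. Both genes were thus several-fold higher in each overexpression library than in either WT library. In the other file Ighg2c counted 2786 and 2557 reads in Ly6d-high and 0 in each Ly6d-low library. Ighg2b, the gene of a further IgG subclass, counted 11 and 10 reads in WT, 1090 and 1142 in overexpression, and 1470 and 1070 in Ly6d-high libraries, with 0 in Ly6d-low. It held fewer reads than Igha and Ighg2c in each WT, overexpression and Ly6d-high library.

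Ighg1 was prominent in overexpression libraries but not in the other groups. Its counts were 4 and 0 in WT, 647 and 573 in overexpression, 32 and 17 in Ly6d-high, and 0 in both Ly6d-low libraries. Ighg3 had 3 and 0 reads in WT, 34 and 41 in overexpression, and 2 in each Ly6d-high library. Ighm, the heavy chain of IgM, counted 9 and 6 reads in WT, 95 and 130 in overexpression, 132 and 145 in Ly6d-high, and 1 and 6 in Ly6d-low libraries. It made up 7 of the 8 heavy constant reads of the Ly6d-low cells. Ighd, which naive B cells make beside Ighm, had 10 reads in the second overexpression library, 3 in the first Ly6d-high library and 0 elsewhere. Ighe, which is no member, had 1 read in the first Ly6d-high library and 0 elsewhere.

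Between overexpression and WT, edgeR's quasi-likelihood fit gave a log2 difference of 3.27 ± 0.08 (SE) for Igha and 3.04 ± 0.13 for Ighg2c, 9.74-fold and 8.27-fold on pooled reads. It gave 6.59 ± 0.20 for Ighg2b and 8.04 ± 0.40 for Ighg1, 98.3-fold (95% counting interval 64.1 to 159) and 282-fold (110 to 1037). No test was made of a difference between isotypes in these changes. Ighm differed by 3.76 ± 0.48 and Ighg3 by 4.44 ± 1.02. On pooled reads Ighm was 13.9-fold (8.23 to 25.2) and Ighg3 23.1-fold higher (7.61 to 115), and the call of Ighg3 was lost without the second WT library.

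The 4 heavy constant genes tested in the other file lay under 1 TPM in both Ly6d-low libraries and passed the filter through the Ly6d-high group only, so a difference was built into their being tested. With that limit, limma on log2(TPM + 1) gave a difference of 8.11 ± 0.16 between Ly6d-high and Ly6d-low cells for Ighg2c (adjusted p = 1.79e-06), 7.31 ± 0.16 for Igha (2.70e-06) and 6.03 ± 0.17 for Ighg2b (6.68e-06). On pooled reads Ighg2c was at least 1575-fold and Ighg2b at least 749-fold higher, where a group at 0 is set at a floor of 3 reads. Igha had 1 read in Ly6d-low cells, so its ratio of 5584 has a counting interval from 1002 to 220609. Ighm differed by 3.15 ± 0.24 (adjusted p = 0.00035 by limma, 0.0520 without the second Ly6d-high library) and was 35.005-fold higher on pooled reads (16.8 to 87.9). Ighg1 lay under 1 TPM in 3 of the 4 libraries, was not tested, and was at least 14.4-fold higher in Ly6d-high reads.

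**Figure D1:**
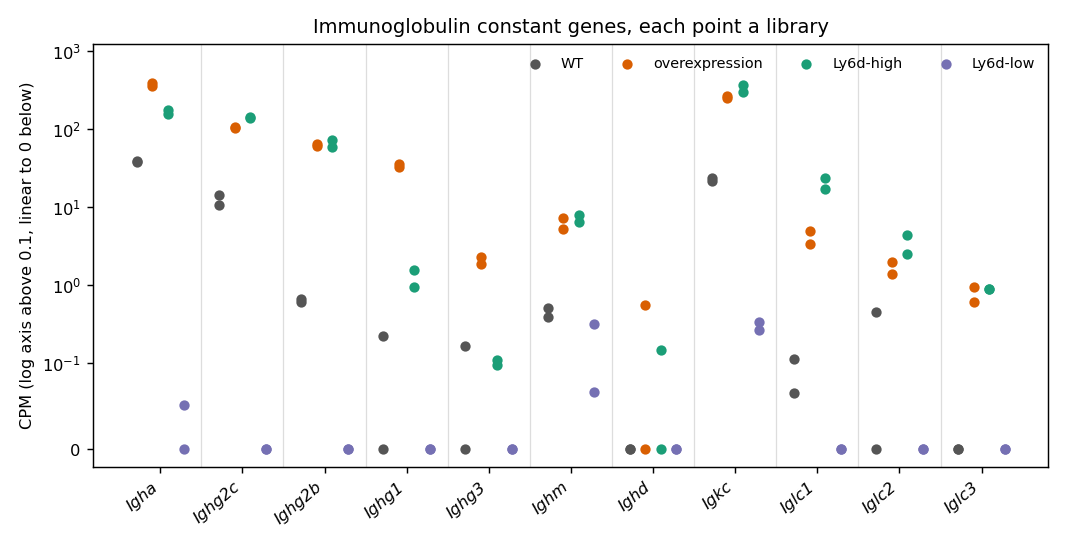
CPM of the 11 constant genes among the members, with each of the 8 libraries as a point, on an axis that is logarithmic above 0.1 CPM and linear below it down to 0. The Ly6d-low points lie at or near 0 for every gene. Overexpression and Ly6d-high libraries lie far apart for Ighg1 (647 and 573 against 32 and 17 reads) and Ighg3 (34 and 41 against 2 in each). For Iglc1 they lie apart in the other direction (61 and 88 against 481 and 305 reads).

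The isotype composition differed between groups. By reads, Igha made up 70.2% and 76.7% of heavy constant reads in WT, 62.7% and 64.9% in overexpression, and 44.2% and 42.5% in Ly6d-high libraries. Ighg2c made up 27.0% and 21.3%, then 18.9% and 17.4%, then 35.1% and 38.8% in the same order. Ighg2b made up 1.15% and 1.30% in WT and 10.8% and 10.7% in overexpression libraries, and stood at 18.5% and 16.2% in Ly6d-high libraries. Ighg1 made up 6.39% and 5.36% in overexpression libraries, 0.420% and 0% in WT, and 0.403% and 0.258% in Ly6d-high libraries. With a count of 0 among 771 heavy constant reads, the share of Ighg1 in the second WT library could be as high as 0.477% (95% Clopper-Pearson). Ighm stayed between 0.778% and 2.20% in all 6 libraries. The Ly6d-low libraries held 1 and 7 heavy constant reads and allow no composition.

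The order of Igha and Ighg2c in Ly6d-high cells depended on the scale. Per TPM, Igha took 32.5% and 30.4% and Ighg2c 51.9% and 55.7% of the heavy constant total there, the opposite order to that by reads. The gene models of the deposited table are 2668 bases long for Igha, 2678 for Ighg2b and 1326 for Ighg2c, so TPM divides Igha by the longer length. Divided instead by the shortest annotated transcript, 1100 bases for Igha and 1111 for Ighg2c, the mean shares in Ly6d-high cells were 43.8% and 37.0%. In WT and overexpression libraries Igha came before Ighg2c on each of these scales.

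**Figure D2:**
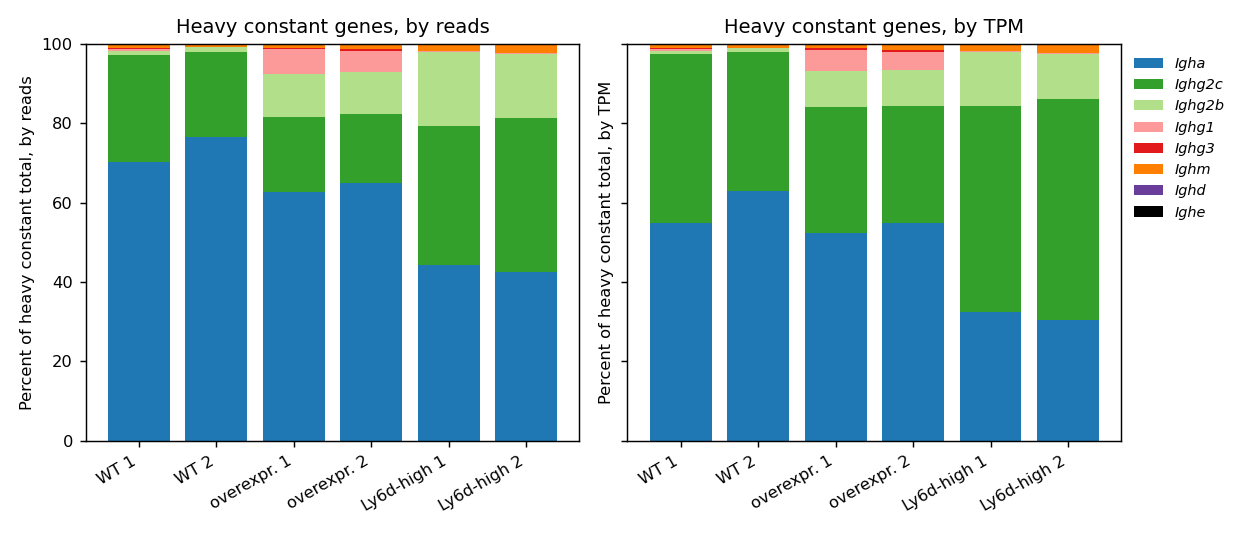
Percent of the heavy constant total taken by each isotype in the 6 libraries with enough reads, by reads (left) and by TPM (right). Ighg2b and Ighg1 are thin bands in WT and wider ones in overexpression libraries, and the order of Igha and Ighg2c in Ly6d-high libraries turns between the panels.

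Kappa dominated the light chains in each group with enough reads. Igkc, the single kappa constant gene, at chr6:70726435-70726966, counted 418 and 333 reads in WT, 4494 and 4738 in overexpression, 7503 and 5481 in Ly6d-high, and 5 in each Ly6d-low library. It was 11.4-fold higher in overexpression than WT on pooled reads (95% counting interval 10.6 to 12.3; log2 difference 3.49 ± 0.08). Against Ly6d-low it was 1149-fold higher in Ly6d-high cells (624 to 2396; limma difference 9.43 ± 0.15, adjusted p = 8.03e-07). Kappa took 97.7% and 99.7% of light constant reads in WT, 97.9% and 97.1% in overexpression, and 92.7% and 93.7% in Ly6d-high libraries. The Ly6d-high shares lay below all 4 others. These shares come from separate files and their difference was not tested.

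Iglc1 was the main lambda constant gene in overexpression and Ly6d-high libraries. It counted 2 and 1 reads in WT, 61 and 88 in overexpression, 481 and 305 in Ly6d-high, and 0 in both Ly6d-low libraries. Its share of lambda constant reads was 62.9% in each overexpression library and 81.7% and 83.3% in Ly6d-high libraries. Iglc2 counted 8 and 0, 25 and 35, and 90 and 45 reads in WT, overexpression and Ly6d-high libraries. Iglc3 counted 0 in WT, 11 and 17 in overexpression, and 18 and 16 in Ly6d-high libraries. Iglc4, which is no member, had 0 reads in all 8. By limma, and with the same limit from the filter, Iglc1 was higher in Ly6d-high cells by 6.86 ± 0.19 (adjusted p = 6.68e-06), Iglc2 by 3.93 ± 0.26 (0.000196) and Iglc3 by 2.62 ± 0.21 (0.0005). On pooled reads Iglc1 was 45.9-fold (15.4 to 225) and Iglc2 6.94-fold higher (3.30 to 16.8) in overexpression than in WT, and Iglc3 at least 8.63-fold. These intervals cover counting error only, and edgeR called 1 of the 3 genes higher in overexpression.

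Many V segments seen in overexpression libraries had no read in WT. Of the 134 V members, 71 had a read in a WT library and 63 in none, and 59 of the 63 had reads in both overexpression libraries. The members were chosen on these counts, and WT libraries held 626 and 388 V reads against 6697 and 6191 in overexpression. A count of 0 in WT therefore does not show that a segment was absent there. The leading V segment was Igkv1-117 in each of these 4 libraries. It counted 39 and 22 reads in WT and 233 and 288 in overexpression libraries, 6.23%, 5.67%, 3.48% and 4.65% of V reads. Relative to library size it was 7.90-fold higher in overexpression (95% counting interval 6.05 to 10.5), while its share of V reads was lower in each overexpression library than in either WT library. Of heavy V segments, Ighv8-8 had the largest mean share over the overexpression libraries, with 211 and 165 reads against 16 and 5 in WT. Ighv9-2 had the largest mean share over the WT libraries, with 29 and 10 reads against 144 and 116 in overexpression. The order differed between libraries: Ighv1-81 led the second overexpression library (126 and 167 reads; 26 and 9 in WT), and Ighv1-80 led the second WT library (6 and 18 reads; 159 and 93 in overexpression). Ighv1-78 (19 and 14; 104 and 66) was the fifth by mean share with all 4 libraries weighted equally, although segments such as Ighv1-82 held more reads in the file.

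The 10 members with the largest log2 difference were all V segments with 0 reads in both WT libraries, where a fitted fold depends on the prior count. As bounds on pooled reads, Ighv1-82 (155 and 135 overexpression reads) was at least 89.4-fold higher, Igkv19-93 (105 and 177) at least 86.9-fold and Igkv10-96 (111 and 124) at least 72.4-fold. The other 7, Igkv3-12, Igkv4-59, Igkv14-111, Igkv4-91, Igkv6-13, Ighv1-7 and Igkv8-21, were at least 37.9-fold to 70.3-fold higher. A lower mean CPM in overexpression than in WT was seen for 4 of the 146 members. The members were chosen on these counts and 66 had 0 reads in WT, so nothing is read from this number. These 4, chosen for their direction after their values were seen, were Ighv1-50 (10 and 16 WT reads; 4 and 0), Ighv9-1 (9 and 4; 0 and 0), Ighv3-4 (10 and 1; 0 and 0) and Ighv1-66 (6 and 1; 4 and 0). Igkv5-48, with 39 and 15 reads in WT, tied for the largest share of the first WT library and had 57 and 34 reads in overexpression libraries. It was 1.56-fold higher (1.10 to 2.22), while the members' median fold, with genes at 0 set at their bound, was 10.7 beside 1.01 over 19154 genes with at least 10 reads.

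V reads were spread over more segments in overexpression than in WT libraries. The effective number of V segments, the inverse of the summed squared shares, was 35.3 and 35.1 in WT and 59.7 and 53.6 in overexpression libraries after scaling each library to 388 V reads. It was 23.7 and 26.1 in Ly6d-high libraries at that depth, below all 4 others. This order did not hold within loci or for the number of segments seen. For kappa V segments at 165 reads the effective number was 16.6 and 13.6 in WT, 30.5 and 26.9 in overexpression, and 22.4 and 21.2 in Ly6d-high libraries. For heavy V segments at 219 reads it was 19.1 and 21.1, 29.1 and 27.8, and 12.8 and 20.1. Segments seen at 388 V reads numbered 64.1 and 59.0, 105.1 and 100.4, and 75.7 and 77.5, as hypergeometric means. The 10 leading segments took 41.9% and 42.3% of V reads in WT, 27.0% and 29.4% in overexpression, and 48.0% and 47.0% in Ly6d-high libraries. Overexpression lay above WT in each library for these effective numbers, and no p is given since the members were chosen on these reads.

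In Ly6d-high cells the lambda segment Iglv1 led, with 292 and 177 reads, 14.4% and 13.2% of V reads, against 1 and 0 reads in Ly6d-low cells. Its share had been 4.15% and 1.03% in WT and 3.20% and 3.004% in overexpression libraries. Igkv15-103 had 134 and 76 reads in Ly6d-high and 0 in Ly6d-low, and Igkv4-57 had 96 and 53, Igkv8-30 had 70 and 60 and Igkv3-12 had 67 and 62. Of heavy V segments, Ighv9-2 took the most reads, 94 and 44, which was 21.8% and 13.6% of heavy V reads. By limma, again for segments under 1 TPM in both Ly6d-low libraries, the differences were 6.08 ± 0.24 for Iglv1 (adjusted p = 2.53e-05), 5.24 ± 0.23 for Igkv15-103 (3.12e-05), 4.85 ± 0.23 for Igkv4-57 (5.53e-05) and 4.71 ± 0.28 for Ighv9-2 (0.000117). On pooled reads Igkv15-103 was at least 61.9-fold, Igkv4-57 at least 43.9-fold and Ighv9-2 at least 40.7-fold higher, and the ratio of Iglv1 was 415 (74.1 to 16421). The Ly6d-low libraries held 2 and 4 V reads in all, too few for a composition.

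Segment use was alike within a group and less so between groups. The overlap of V shares, the percent of V reads that 2 libraries place on the same segments, was 64.4% between the WT libraries, 81.0% between the overexpression libraries and 84.8% between the Ly6d-high libraries. Between WT and overexpression libraries it was 40.3% to 50.2%, between overexpression and Ly6d-high 53.2% to 54.1%, and between WT and Ly6d-high 31.3% to 39.6%. Spearman's rho across the 218 annotated V segments, many at 0, was 0.80, 0.90 and 0.93 within the groups, 0.41 to 0.52 between WT and overexpression, and 0.60 to 0.61 between overexpression and Ly6d-high. WT libraries held 626 and 388 V reads against 1337 to 6697 in the overexpression and Ly6d-high libraries, which limits their overlap with any library. These are descriptions across segments, which are not independent replicates.

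**Figure D3:**
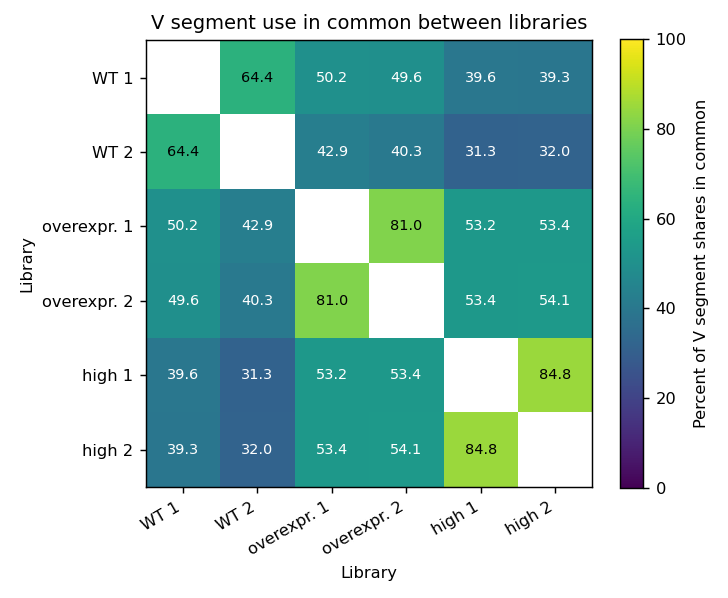
Percent of V segment shares in common for each pair of libraries, computed as the sum over V segments of the smaller share. The pairs within a group (64.4%, 81.0% and 84.8%) exceed all pairs between groups, of which the highest is 54.1%.

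Nearly all segments used in Ly6d-high cells were also used in the WT and overexpression file, but not the reverse. At 10 or more reads over a file's 4 libraries, 146 segments passed in the WT and overexpression file and 77 in the Ly6d-high and Ly6d-low file. The 71 in both were 48.6% of the first list and 92.2% of the second. For kappa V segments the lists held 69 and 41 with 40 shared, and for heavy V segments 63 and 22 with 20 shared. Among constant genes 11 and 9 passed, all 9 being shared, and both lambda V members passed in both files. The first file held 13902 V reads and the second 3371. With the first scaled down to the second, 93 and 65 V segments passed and 49 were shared, 52.7% and 75.4% of the lists. Of the 146 members, 49 had no read in the file of Ly6d-high and Ly6d-low cells and 26 had 1 to 9.

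Some segments stood apart between the files. Igkv8-30 had 70 and 60 reads in Ly6d-high libraries, 3.45% and 4.49% of V reads, against 0.119% and 0.162% in overexpression and 0.958% and 1.03% in WT libraries. Igkv6-13 had 40 and 98 reads and Ighv1-7 had 51 and 86 in overexpression libraries, and neither had a read in Ly6d-high libraries. The Ighv1 family, the largest heavy V family with 35 members, took 66.0% and 72.6% of heavy V reads in WT, 63.4% and 63.5% in overexpression, and 39.2% and 48.6% in Ly6d-high libraries. Ighv9 took 16.8% and 10.5%, 8.58% and 6.83%, and 27.4% and 15.2%, and most of its Ly6d-high reads came from Ighv9-2. These differences between files were not tested.

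**Figure D4:**
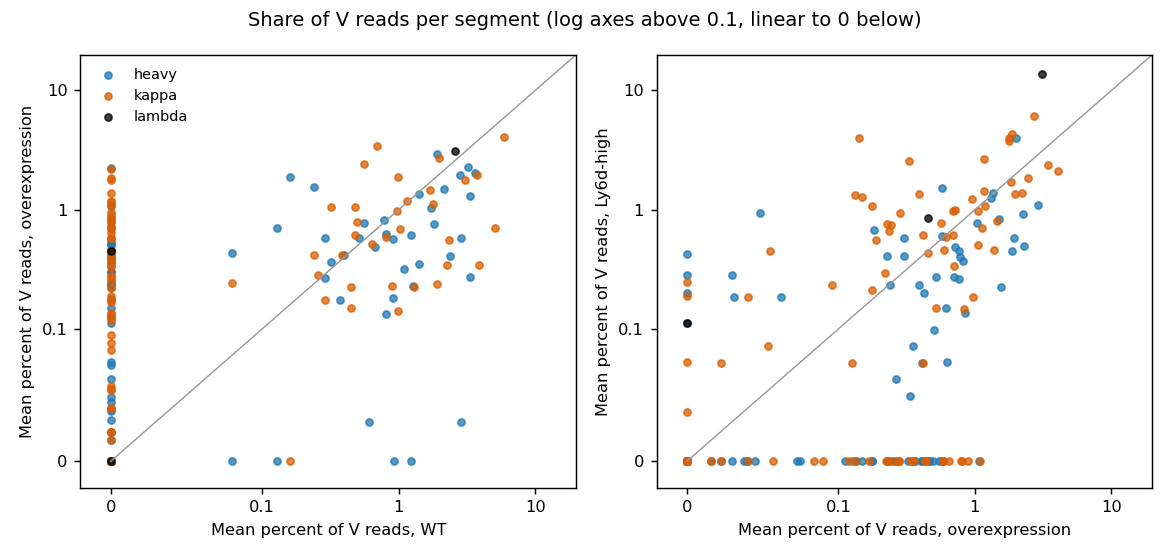
Mean percent of V reads per segment, as WT against overexpression (left) and overexpression against Ly6d-high (right), with log axes above 0.1% and linear ones below, colours for the locus and a line of equal shares. Many segments at 0 in WT, whose libraries held fewer V reads, hold reads in overexpression libraries. The lambda segment Iglv1 (14.4% and 13.2% in Ly6d-high) is the highest point on the right.

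The balance of V, J and C reads also differed between files. Per 100 constant reads there were 45.1 and 35.02 V reads in WT, 45.3 and 39.4 in overexpression, and 12.2 and 10.3 in Ly6d-high libraries. Heavy V segments took 42.9% and 56.3% of V reads in WT, 43.6% and 38.4% in overexpression, and 19.8% and 22.6% in Ly6d-high libraries. Light constant TPM was 1.76 and 1.78 times the heavy constant TPM in WT, 1.91 and 1.94 in overexpression, and 3.79 and 3.20 in Ly6d-high libraries, a ratio that carries the gene model lengths given above. Ighj4, the only J member, had 11 and 5 reads in overexpression libraries and 0 in the other 6, but the members were chosen on WT and overexpression counts. All annotated kappa J segments together had 3 and 6 reads in overexpression and 24 and 14 in Ly6d-high libraries. Those of the lambda locus had 0 in overexpression and 18 and 8 in Ly6d-high libraries. The cause of these differences between files was not tested, and no label says whether libraries of a file were prepared together.

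Across the whole table, edgeR called 366 of 15771 genes higher in overexpression (2.32%) and 290 lower (1.84%) at an adjusted p under 0.05. Of the 110 members tested, 78 were called higher and 0 lower, with 97 and 0 at an unadjusted p under 0.05. DESeq2 called 85 higher and 0 lower, beside 1.55% and 1.14% of all genes. The rule used these libraries and 66 members had 0 reads in WT, so nothing is read from these counts. Those called were 31 of 46 heavy V, 37 of 52 kappa V and both lambda V segments tested, the 6 heavy constant genes tested, Igkc, and 1 of 3 lambda constant genes.

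Between Ly6d-high and Ly6d-low cells, limma called 1264 of 14625 genes higher (8.64%) and 171 lower (1.17%). Of the 73 members tested, 72 were higher and 0 lower, with 73 and 0 at an unadjusted p under 0.05. The exception was Ighv2-9-1, with 1.01 and 4.48 TPM in Ly6d-high and 0 in Ly6d-low libraries (adjusted p = 0.0566). Of the tested members, 72 lay under 1 TPM in both Ly6d-low libraries and entered the test through the Ly6d-high group, so the count is not support for a difference. On recovered reads edgeR tested 44 members and called all 44 higher, beside 8.01% of all genes. DESeq2 called 44 higher and 0 lower there, beside 3.58% and 2.31% of all genes. The median difference over all tested genes was 0.25, and 0.01 with TMM scaling.

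Among other genes of the antibody pathway, Jchain and Mzb1 were higher in the same groups as the immunoglobulin genes, while most genes of the antibody secretion list were not called. Jchain, which encodes the chain that joins IgA and IgM units, counted 115 and 84 reads in WT, 1395 and 1303 in overexpression, 1328 and 932 in Ly6d-high, and 2 in each Ly6d-low library. It was higher in overexpression by 3.63 ± 0.14 (edgeR adjusted p = 8.72e-09) and in Ly6d-high cells by 5.78 ± 0.18 (limma adjusted p = 8.77e-06). Mzb1, a chaperone of antibody assembly, counted 11 and 1, 92 and 155, 154 and 112, and 0 and 0 reads in the same order of groups. Its differences were 4.24 ± 0.65 (edgeR adjusted p = 0.00337) and 4.38 ± 0.19 (limma adjusted p = 3.20e-05). Neither gene overlapped between the groups of a file. Both lay under 1 TPM in each Ly6d-low library and entered the limma test through the Ly6d-high group, so a difference was built into their being tested there.

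Of the antibody secretion list, 2 of 17 tested genes were higher and 1 lower in overexpression (median log2 difference 0.04), and 4 of 15 higher in Ly6d-high (median 0.40). The lower one was Sec11c, a signal peptidase subunit (−0.65 ± 0.13, edgeR adjusted p = 0.0145). Besides Jchain and Mzb1, the Ly6d-high calls were Xbp1, a secretory transcription factor that epithelial cells also express (10934 and 10310 against 4401 and 5564 reads), and Pou2af1, a B lineage coactivator (34 and 26 against 2 and 4). Like Jchain and Mzb1, Pou2af1 lay under 1 TPM in each Ly6d-low library and was tested through the Ly6d-high group. The limma adjusted p of Pou2af1 was 0.0260, but 0.0754 without the second Ly6d-high and 0.0866 without the first Ly6d-low library. Irf4, a transcription factor of plasma cells, counted 3 and 9 reads in WT, 68 and 28 in overexpression, 8 and 9 in Ly6d-high, and 0 in Ly6d-low libraries, with an edgeR adjusted p of 0.0835. Sdc1 and Prdm1, which are used as plasma cell markers but are also made by epithelial cells, did not pass either test.

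Of the B cell list, 1 of 8 tested genes (Syk) was higher in overexpression (median 0.59) and 2 of 4 (Blnk and Lyn) in Ly6d-high cells (median 0.29). Leaving out a library took these calls past the threshold, mostly with log2 differences of like size. Syk, with a difference of 0.89 ± 0.20 (edgeR adjusted p = 0.0290), had 0.85 (0.0915) and 0.93 (0.0510) without the first and the second WT library. Blnk, with 1.499 ± 0.18 (limma adjusted p = 0.00266), had 1.52 (0.0540) without the second Ly6d-high library. Lyn, with 0.76 ± 0.18 (limma adjusted p = 0.0452), had 0.56 (0.0917) without the second Ly6d-high library, and 0.75 (0.352) and 0.76 (0.272) without the first and the second Ly6d-low library. The defining marker Pax5 had 0 reads in all 8 libraries. Ms4a1, which encodes CD20, had 2 reads in the first overexpression library, 2 in the first Ly6d-low library and 0 elsewhere. Cd79a, a B cell receptor subunit that plasma cells can keep, had 3 and 2 reads in WT, 17 and 17 in overexpression, 11 and 2 in Ly6d-high, and 1 and 2 in Ly6d-low libraries. Of the recombination and class switching list, 0 of 5 tested genes were called in either comparison by edgeR and limma, and 0 had an unadjusted p under 0.05 in these tests or in DESeq2. Rag1 and Rag2, the recombinase genes, had 0 reads in all 8 libraries.

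Of the antibody receptor list, 4 of 8 tested genes were higher and 1 lower in overexpression (median 1.67). Those higher were the Fc receptor genes Fcgr2b, Fcgr3, Fcgr4 and Fcer1g. Fcgr3, an activating receptor of myeloid and natural killer cells, counted 30 and 24 reads in WT, 105 and 135 in overexpression, 52 and 79 in Ly6d-high, and 5 and 13 in Ly6d-low libraries. Pigr, which carries IgA across epithelia, was lower in overexpression (192.9 and 190.9 CPM against 282.7 and 286.0; −0.59 ± 0.06, edgeR adjusted p = 0.000228). It was higher in Ly6d-high cells, with 158 and 206.7 against 96.2 and 94.9 TPM (0.91 ± 0.16, limma adjusted p = 0.0130). With Fcgr3, it made 2 of 7 tested genes higher in Ly6d-high cells (median 0.90). Of the plasma cell survival and chemotaxis list, 2 of 10 were higher in overexpression (Cxcl13 and Cxcr4, median 0.39) and 2 of 6 in Ly6d-high (Cxcl12 and Ccr10, median 0.43). Fcgr3 and Ccr10 lay under 1 TPM in each Ly6d-low library and entered the limma test through the Ly6d-high group. Without a library, adjusted p passed 0.05 for Fcgr4 (0.0910 and 0.132 without the first and the second WT library, 0.0590 without the second overexpression library), Fcer1g (0.0803 without the first WT library) and Cxcl13 (0.0767 without the second WT library) by edgeR. By limma it did so for Fcgr3 (0.104), Cxcl12 (0.0830) and Ccr10 (0.103) without the second Ly6d-high library. It did so without the first Ly6d-low library for Cxcl12 (0.0545) and Ccr10 (0.186), and without the second for Ccr10 (0.0701). Over the 5 lists 10 genes were higher in Ly6d-high cells by limma, which called 8.64% of all genes tested higher. Overexpression medians stand beside −0.00 over all genes tested, and Ly6d-high medians beside 0.25.

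**Figure D5:**
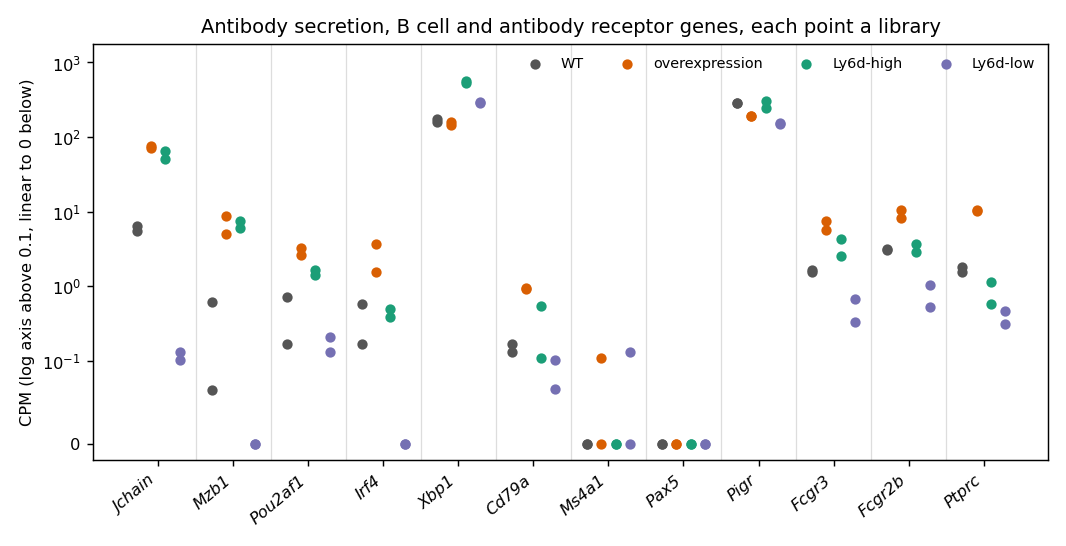
CPM of 12 genes of antibody secretion, B cells, antibody receptors and leukocytes in each of the 8 libraries, on an axis that is logarithmic above 0.1 CPM and linear below. Within each file Jchain and Mzb1 have the direction of Igha and Igkc, higher in overexpression than WT and in Ly6d-high than Ly6d-low libraries. Pax5 lies at 0 in all libraries and Xbp1 is abundant in all of them.

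Several marker lists of other cell types differed between the groups, in both directions, and their part in the result was not tested. The summed level of the 6 pan-leukocyte genes was 15.7 and 13.9 CPM in WT, 56.6 and 68.6 in overexpression, 27.0 and 24.9 in Ly6d-high, and 15.998 and 15.99 in Ly6d-low libraries, with 5 of 6 higher in overexpression (edgeR) and 1 of 5 tested in Ly6d-high cells (limma). The 10 macrophage genes summed to 282 and 279, 406 and 447, 324 and 288, and 101 and 97.5 CPM, with 6 of 10 and 5 of 9 higher. Apoe alone held 197 and 191, 170 and 199, 198 and 172, and 45.4 and 43.9 CPM of these sums. Its log2 difference in overexpression was −0.09. The 10 neutrophil genes summed to 55.8 and 55.7, 163 and 170, 216 and 246, and 85.6 and 86.9 CPM, with 5 of 8 and 2 of 3 higher. In the Ly6d-high and Ly6d-low file nearly all of that sum was Ltf, which epithelial cells also make (210 and 242 against 82.6 and 83.8 CPM), whereas S100a8, S100a9, Ngp, Camp and Retnlg lay under 1 CPM there. In overexpression these 5 were the genes called, and Ltf had a log2 difference of 0.01. The 12 T cell genes summed to 3.04 to 4.03 CPM in WT and 9.73 to 10.7 in overexpression, 8.99 to 12.04 in Ly6d-high and 3.67 to 5.18 in Ly6d-low libraries, with 0 of 4 tested genes called higher in overexpression by edgeR (2 at an unadjusted p under 0.05; DESeq2 also 0) and 2 of 4 higher in Ly6d-high cells by limma. T cell receptor segments held 61 and 62 reads in Ly6d-low and 98 and 69 in Ly6d-high libraries, whereas the immunoglobulin members held 8 and 16 against 17987 and 13722. The 10 acinar genes were all lower in overexpression (18131 and 18600 CPM in WT, 1296 and 1424) and 6 of 10 were higher in Ly6d-high cells (5159 and 4701 against 2538 and 2570). The 10 tumour epithelium genes were above 0 in all 8 libraries. They summed to 13082 and 12736 CPM in WT, 13500 and 14180 in overexpression, 31531 and 29267 in Ly6d-high, and 45101 and 45094 in Ly6d-low libraries. Of these genes, 1 was higher and 1 lower in overexpression, and 2 were higher and 4 lower in Ly6d-high cells. Of the fibroblast and mural cell list, 2 of 10 were higher and 1 lower in overexpression and 1 of 9 higher in Ly6d-high cells, and of the endothelial list 5 of 8 were lower in overexpression. Of the dendritic cell and erythroid lists, 1 of 6 each was higher in overexpression.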

How the data were processed

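RNA of sorted KPC1199 cells was measured in 8 libraries, 2 each for WT, Ly6d overexpression, Ly6d-high and Ly6d-low. Per the submitters' processing notes, fastp, HISAT2, featureCounts and DESeq2 were run by the authors (no versions named), and the build is mm9. The gene coordinates are those of GRCm38, and strand and multi-mapped read handling are not stated there. The authors deposited raw counts for WT and overexpression and TPM for Ly6d-high and Ly6d-low. Reads were recovered from the TPM and the gene lengths: 100% of 85643 nonzero values came within 0.1 reads of a whole number. Totals were 15449241 to 18290325 reads for WT and overexpression, and 15063975 to 20509539 for Ly6d-high and Ly6d-low, and they limit how small a count can be read. Another 2 per-sample columns fit no label and were left out.

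For counts the test was that of edgeR 4.0.16 in R 4.3.3 (filterByExpr, TMM, quasi-likelihood test) and for TPM the moderated test of limma 3.58.1 with a trend, on log2 of TPM plus 1, where 2 or more of the 4 libraries reached 1 TPM. Limma differences are on that scale and understate changes of low genes. A gene under 1 TPM in both Ly6d-low libraries was tested only where both Ly6d-high libraries reached that level. Adjusted p-values (Benjamini-Hochberg) are over all genes of a table, with a threshold of 0.05. Standard errors of edgeR fold changes are the fold change over the square root of F. A floor of 3 reads over a group bounds folds against 0, and 95% intervals of shares are Clopper-Pearson. The tables were normalized separately and no test was made between them. With 2 against 2 libraries an exact permutation test of a single value cannot go below p = 0.333, so none was run.

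The members and gene lists were chosen with earlier results of these data known. Named genes are every constant and J member, the 10 largest called changes per file, the segments next to the minimum, and from each list those with the lowest p. Of the 5 leading V segments per file and locus, some are named and others are not. The genes of the antibody pathway came from 5 lists and other cell types from 11. Fits were tested on simulated counts and TPM. DESeq2 1.42.0, other filters, scalings and pseudocounts, a replicate block and leaving out each library were tried. Sequences come from GENCODE M21 transcripts (GRCm38); 134 of 134 V members were matched.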

Additional observations from a re-analysis of the deposited data

How the results depend on the processing

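The overexpression count of 78 members called higher stayed within 1.5 times under DESeq2, no filter, no TMM and the replicate block. In these fits 1.55% to 2.68% of all genes were called higher, against 2.32% in the main fit. The Ly6d-high count of 72 was 44 by edgeR and 44 by DESeq2 on recovered reads, and 43 of the 72 were among the calls of each. The share of all genes called higher was 8.64% in the main fit, 8.01% by edgeR and 3.58% by DESeq2. EdgeR's filter tested 44 members. All 72 were among the genes fitted by DESeq2, and the cause of its lower count was not tested. Leaving out a library leaves 1 library in a group, and counts of calls from those fits are not given. The replicate block called 57 members higher in overexpression, beside 1.62% of all genes. In Ly6d-high cells it called 73, beside 24.5% of all genes. Deviations of same-numbered libraries from their group means had a correlation of 0.00035 between WT and overexpression. Between Ly6d-high and Ly6d-low it was 0.0681. With 2 libraries per group this cannot show whether same-numbered libraries were paired, and no label gives a pairing. The 10 antibody pathway genes higher in Ly6d-high cells were 4 with no filter and 17 under the replicate block. The share of all genes called higher also moved, from 8.64% in the main fit to 1.85% with no filter and 24.5% under the block. No call of a named gene or count turned its direction.

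As a share of reads in place of TPM, the immunoglobulin share was 0.0104% in WT, 0.119% in overexpression, 0.0812% in Ly6d-high and 6.80e-05% in Ly6d-low cells, and kappa took 93.2% of light constant reads in Ly6d-high. Mean isotype shares by TPM were 58.9%, 53.6% and 31.4% for Igha, 38.8%, 30.7% and 53.8% for Ighg2c, and 0.980%, 8.98% and 12.5% for Ighg2b in WT, overexpression and Ly6d-high. By reads they were 73.4%, 63.8% and 43.4% for Igha, 24.1%, 18.1% and 36.9% for Ighg2c, and 1.23%, 10.7% and 17.4% for Ighg2b. Per base of the shortest transcript, an alternative chosen after seeing the data, they were 73.8%, 64.1% and 43.8%, 24.0%, 18.0% and 37.0%, and 1.22%, 10.6% and 17.3%. The effective number of V segments was 35.2 in WT and 56.7 in overexpression, 35.8 and 65.6 with all reads, and 36.0 and 66.0 per kilobase. Members numbered 158 at 5 counts and 131 at 20, and segments shared by both files 90 and 52. The 24 member reads of Ly6d-low cells limit every fold against them.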

Other observations

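Some annotated segments that are not members had reads in the Ly6d-high libraries. Chosen after their values were seen, the 6 with at least 10 reads were Ighv5-4 (14 and 16 reads), Ighv3-3 (11 and 4), Igkv4-80 (9 and 6), Iglj1 (18 and 7), Igkj2 (8 and 7) and Igkj1 (10 and 2), all with 0 in Ly6d-low libraries. The 264 annotated segments together held 18097 and 13801 reads in Ly6d-high libraries, of which 17987 and 13722 were the members'. In both files, 81 annotated segments had no read.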
